A study of Mus musculus with 24 samples.

Results

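The comparison described here sets the tibialis anterior muscle of 6 male Vps39+/- mice against that of 6 female Vps39+/- mice, 12 of the 24 arrays of the series. These were the arrays whose titles carry the Vps39 genotype, split by the sex given in the title and in the sex label, and only autosomal genes were compared. Tibialis anterior is a fast-twitch hindlimb muscle that lifts the foot. All 12 mice were adults of 4 months on a C57BL/6J background, received no treatment and carried 1 germ-line copy of Vps39 that was disrupted in an early coding exon by a neomycin-EGFP cassette, and heterozygous mice were used because embryos without any intact copy do not survive. The 6 male and 6 female wild type (WT) mice of the same strain served as a second, separate set in which the same difference between the sexes was measured. RNA came from the whole homogenised muscle, so fewer cells of a type and less RNA per cell cannot be told apart. The labels used here do not give the hour at which the muscle was taken.

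Male and female muscle of the mouse differ in many transcripts. Androgens acting through their receptor raise genes of polyamine synthesis in mouse muscle, and pituitary growth hormone is released in a sex-dependent rhythm. Muscle also runs a circadian clock, in which CLOCK and BMAL1 (the product of Arntl) switch on their own repressors, the Period and Cryptochrome genes, together with output genes such as Dbp. VPS39 itself works in the HOPS complex, a tether that brings endosomes and autophagosomes to the lysosome for fusion.

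Levels are given on the log2 scale, on which 1 unit is a doubling, and every difference is male minus female. Array medians of the 24 muscles lay between 5.55 and 5.64, no pair of the 12 arrays was identical, and the correlation of pairs over genes, which share arrays and are no replicates, was 0.964 to 0.989. The 3 measured Y-linked check genes were higher in all 6 Vps39+/- males than in any Vps39+/- female, so the sex labels held. Skeletal muscle fibre genes were near the top of the scale in every muscle, with a mean over 15 genes between 12.92 and 13.0 in males and between 12.96 and 12.99 in females. The running numbers that open the sample titles separate the sexes, and if they were a processing order, that order and sex cannot be told apart.

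Vps39 read 7.99, 7.78, 7.31, 8.17, 8.11 and 7.66 in the 6 Vps39+/- males and 7.81, 8.06, 8.29, 6.67, 7.90 and 8.29 in the 6 Vps39+/- females. The sexes overlapped fully, with a difference of 0.00 and a 95% interval from -0.50 to 0.51 (adjusted p = 1). WT males ranged from 7.11 to 8.22 and WT females from 6.70 to 7.82, so the Vps39 signal was not lower in the muscles labelled Vps39+/-. Where the array probes lie relative to the disrupted exon could not be read from the sources used, and the signal therefore does not check the genotype label. By qPCR, with an assay that spans the disrupted stretch, the paper reported lower Vps39 in tibialis anterior of Vps39+/- than of WT mice.

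Of 18726 autosomal probe sets, 76 were higher in Vps39+/- males, 0.406% of those tested, and 58 were lower, 0.310% of those tested (limma, adjusted p under 0.05). Without adjustment 2068 passed. Among the 134 called genes the smallest absolute difference was 0.26 and the median 0.59, and 22 rose and 10 fell by at least 1 unit. The levels of the 6 males and the 6 females did not overlap for 105 of the 134, where 1.71% of all autosomal probe sets did not overlap. The median difference over all autosomal genes was -0.00437. Leaving out 1 array lowered the number of calls most for male 3 (88 calls, 32 of them lower) and male 4 (89 calls, 35 lower), and the number of lower calls was 35 without female 3 and 38 without female 6.

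Because transcripts of liver genes were high in some muscles, the calls were set against albumin (Alb), the main plasma protein of liver. No called gene correlated with Alb over the 12 arrays at an absolute r of 0.8 or more, and the highest absolute value was 0.513, whereas 145 autosomal probe sets passed that mark. Alb varied widely within both sexes, so a gene that separates the sexes could hardly follow it. The correlation therefore does not test whether liver transcripts took part in the calls. With the Alb level as a covariate 143 genes were called, and 128 of them were among the 134. Without male 2, male 3 and female 6, whose Alb stood more than 2 units above the median of the 12, 62 genes were called (46 higher, 16 lower). Without all 10 muscles of either genotype with Alb more than 2 units above the median of the 24, which left 4 Vps39+/- males and 2 Vps39+/- females, 16 genes were called (12 higher, 4 lower). All 134 genes kept the sign of their difference in both reduced sets, with median absolute differences of 0.596 and 0.593. For the 105 genes whose sexes did not overlap this was fixed in advance, since leaving out arrays cannot turn their sign.

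The autosomal gene with the largest increase was Slc15a5, a member of the proton-coupled oligopeptide transporter family. It ranged from 6.58 to 7.92 (median 7.33) in Vps39+/- males and from 4.48 to 5.60 (median 4.80) in Vps39+/- females. Its lowest male was about 1 unit above the highest female, and the difference was 2.40 ± 0.20 (SE, n = 6 each, adjusted p = 7.03e-08). C7, a component of the complement pathway that helps to build the membrane attack complex, ranged from 6.86 to 7.20 (median 7.07) in males and from 4.69 to 5.31 (median 5.09) in females, again with no overlap, and rose by 2.00 ± 0.16 (adjusted p = 4.15e-08).

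Genes of nutrient and lipid transport also stood among the 12 largest increases. Slc2a3, which encodes the glucose transporter GLUT3, ranged from 5.26 to 6.33 (median 6.02) in males and from 4.07 to 4.94 (median 4.58) in females and rose by 1.41 ± 0.18 (adjusted p = 4.1e-05). Spns2, an exporter of the lipid mediator sphingosine-1-phosphate, ranged from 9.41 to 9.98 in males and from 7.96 to 8.53 in females and rose by 1.31 ± 0.15 (adjusted p = 8.97e-06). For both genes every male lay above every female. Tmem37, a relative of the gamma subunits of voltage-gated calcium channels, behaved likewise, with 7.39 to 8.27 in males, 6.22 to 6.89 in females and a difference of 1.3 ± 0.14 (adjusted p = 3.85e-06).

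Pfkfb3, whose enzyme makes the glycolytic activator fructose-2,6-bisphosphate, was less even. Its level ran from 8.60 to 10.7 (median 10.5) in males and from 8.04 to 9.40 (median 8.55) in females. The groups overlapped, and the increase of 1.43 ± 0.32 (adjusted p = 0.0254) was lost when any 1 of 8 of the 12 arrays was left out, with an adjusted p of up to 0.084. Htra4, a secreted serine protease of the HtrA family, ranged from 4.66 to 7.31 (median 6.04) in males and from 4.24 to 4.81 (median 4.41) in females. Male 6, at 4.66, was inside the female range, while the other 5 males lay above it, and the difference was 1.57 ± 0.33 (adjusted p = 0.0145). The uncharacterised transcript 1700001O22Rik rose by 1.72 ± 0.28 (adjusted p = 0.00112), with 6.35 to 8.29 in males and 5.19 to 6.45 in females.

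**Figure D1:**
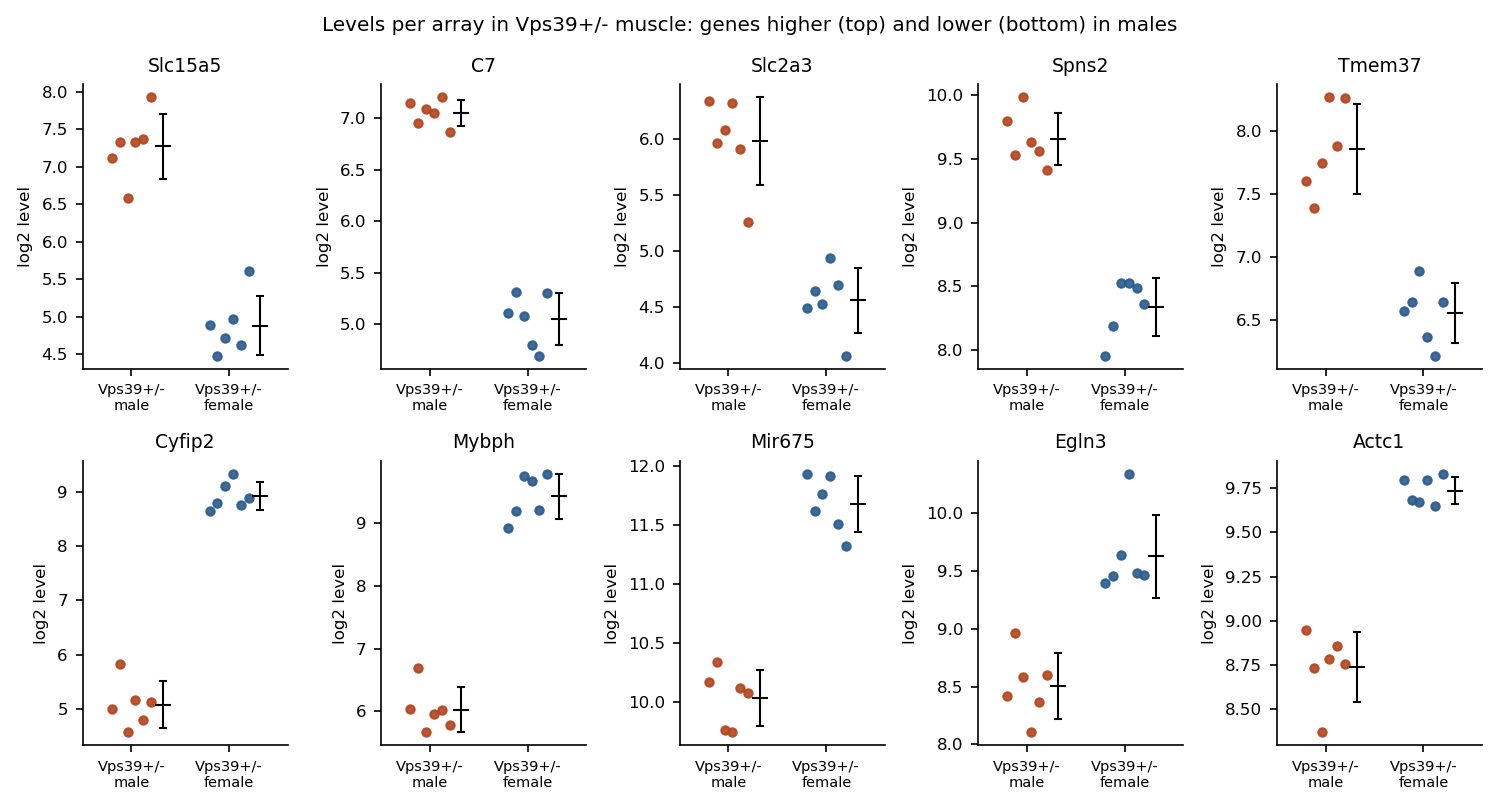
Log2 levels (vertical axis) of 5 genes higher (top row) and 5 genes lower (bottom row) in Vps39+/- males, with 6 males left of 6 females in each panel. Points are single muscles and the bar beside them is the mean with its SD. In all 10 panels every male lies on 1 side of every female, and Cyfip2 shows the widest gap.

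Cyfip2 had the largest difference of all autosomal genes. It encodes a subunit of the WAVE complex, which starts actin branching. Its level was 4.57 to 5.82 (median 5.06) in Vps39+/- males and 8.64 to 9.33 (median 8.83) in Vps39+/- females, a fall of 3.83 ± 0.34 or 14.2-fold (adjusted p = 1.16e-07). Mybph, which encodes myosin-binding protein H of the thick filament, was 5.67 to 6.70 (median 5.99) in males and 8.93 to 9.78 (median 9.44) in females, lower by 10.5-fold (-3.40 ± 0.28, adjusted p = 4.15e-08). The gap between the sexes was over 2 units for both genes. A probe set annotated Mir675, a microRNA that is processed from the imprinted H19 transcript, was 9.75 to 10.3 in males and 11.3 to 11.9 in females, a difference of -1.64 ± 0.16 (adjusted p = 1.01e-06). Whether its probes read H19 RNA or the microRNA precursor was not tested.

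Several of the other 9 largest decreases encode muscle signalling and metabolic proteins. Irs1, the adaptor that carries the signal of the insulin and IGF1 receptors, was 6.83 to 7.63 (median 7.22) in males and 7.81 to 9.09 (median 8.21) in females, a fall of 1.08 ± 0.21 (adjusted p = 0.00743). Egln3, a prolyl hydroxylase that marks hypoxia-inducible factors for breakdown, was 8.11 to 8.96 in males and 9.39 to 10.3 in females (-1.12 ± 0.17, adjusted p = 3.91e-04). Ppp1r1a, an inhibitor of protein phosphatase 1, was 7.06 to 8.21 in males and 8.29 to 8.65 in females (-1.01 ± 0.16, adjusted p = 6.01e-04). In none of these 3 genes did the sexes overlap. Mettl21e, a muscle protein lysine methyltransferase, fell by 1.18 ± 0.19 (adjusted p = 0.00124), and Abhd18, an abhydrolase family member, by 0.99 ± 0.18 (adjusted p = 0.0047), both with no overlap.

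The calls for 2 further genes depended on single arrays. Ostn encodes osteocrin (musclin), a peptide secreted by muscle, and was 7.54 to 8.57 (median 7.79) in males and 8.65 to 10.1 (median 9.37) in females. Its fall of 1.4 ± 0.31 (adjusted p = 0.0278) lost the call on leaving out any 1 of 7 arrays, with an adjusted p of up to 0.0801. Cdkn1a, the cell cycle inhibitor p21, was 6.58 to 8.13 in males and 7.75 to 9.12 in females, which overlapped, and its fall of 1.2 ± 0.28 (adjusted p = 0.0391) was lost without any 1 of 9 arrays (up to 0.103). With Pfkfb3 these were the 3 of the 24 genes named for their size of change that any single array could remove, and the other 21 stayed called.

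The circadian clock held the largest cluster of calls among the gene lists. Of 15 measured core clock genes 6 were higher and 1 was lower in Vps39+/- males, with a median difference of 0.21. Of 9 measured output genes 2 were higher, with a median of 0.33. Over all autosomal probe sets 0.406% were higher and 0.310% lower, the shares to set beside the counts of these and all other lists. The 6 higher genes all encode repressors of CLOCK and BMAL1 or of Arntl (Per1, Per2, Cry2, Ciart, Bhlhe41 and Nr1d2), and the lower gene was Arntl itself.

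Arntl, the activator, was 6.79 to 7.10 (median 6.98) in males and 7.42 to 8.37 (median 7.8) in females, a fall of 0.87 ± 0.16 (adjusted p = 0.00444). Its partner Clock was 8.77 to 9.15 in males and 8.94 to 9.61 in females, a difference of -0.39 that did not pass (adjusted p = 0.0932) but passed without female 1 (-0.48, adjusted p = 0.00958). Npas2, which can stand in for Clock, differed by -0.71 (adjusted p = 0.0554) and passed without male 2 (-0.82, adjusted p = 0.0182). All 3 activator genes had values below 0. Clock also passed under cyclic loess (adjusted p = 0.0346), without dim probe sets (0.0478), with an intensity trend and robust prior (0.0275) and with array weights (0.0328), and Npas2 passed under the last pair of settings (0.0309 and 0.0428).

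Ciart, a repressor that binds the CLOCK and BMAL1 pair, was 6.52 to 6.85 (median 6.69) in males and 4.28 to 5.30 (median 4.76) in females, higher by 1.90 ± 0.23 (adjusted p = 2.72e-05). Per2, a Period repressor, was 6.5 to 6.70 in males and 5.12 to 5.76 in females (1.1 ± 0.12, adjusted p = 6.1e-06). Bhlhe41, which represses through the same DNA element, was 9.02 to 9.40 in males and 7.87 to 8.47 in females (0.99 ± 0.11, adjusted p = 8.97e-06). None of these genes overlapped between the sexes. Per1 rose by 0.72 (adjusted p = 0.00112) and the Cryptochrome gene Cry2 by 0.59 (adjusted p = 6.64e-04). Nr1d2, which encodes REV-ERB beta, a repressor of Arntl, was higher by only 0.26 at an adjusted p that rounds to 0.05, and the call was lost without any 1 of the 12 arrays (up to 0.129). The remaining clock repressors did not pass, with differences of 0.27 for Per3 (adjusted p = 0.62), 0.06 for Cry1 (0.899) and -0.24 for Nr1d1 (0.606).

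Among the outputs, Dbp, a PAR bZIP transcription factor with a strong daily rhythm, was 10.7 to 11.4 (median 10.9) in males and 8.87 to 10.5 (median 9.60) in females, higher by 1.33 ± 0.23 (adjusted p = 0.00224). Tspan4, a tetraspanin, was 6.93 to 7.43 in males and 6.39 to 6.74 in females, higher by 0.51 ± 0.10 (adjusted p = 0.0129). The females differed among themselves in these genes. Female 6 had the lowest Dbp (8.87), the highest Arntl (8.37) and the lowest Nr1d1 (8.75) of the 6, and female 1 had the highest Dbp (10.5) and the lowest Arntl (7.42). Without the 3 Vps39+/- arrays of high Alb, Arntl (adjusted p = 0.053), Nr1d2 (0.205) and Tspan4 (0.157) lost their calls in limma. Without all 10, Arntl (0.313), Nr1d2 (0.632), Tspan4 (0.493), Cry2 (0.313) and Per1 (0.324) lost them. Dbp, Ciart, Per2 and Bhlhe41 kept their calls in both of these smaller sets.

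The promoters of called clock genes were searched for the E-box CACGTG, the element bound by CLOCK and BMAL1 and by BHLHE41, and for AGGTCA on either strand, the core of the element bound by ROR and REV-ERB proteins. RefSeq windows of GRCm38.p6 run from 250 bases before to 50 bases after a start site. Of the 8 higher clock and output genes 7 had a window, and 4 of these held CACGTG (Per1, Ciart, Bhlhe41 and Tspan4), where 7.14% of 31396 autosomal windows held it. AGGTCA was in 16.3% of the windows, and it was in those of 2 of the 7 higher genes (Per1 and Nr1d2) as well as in one of Arntl. Among the genes outside the clock that were also searched, Amd2, Cyfip2, Mybph and C7 held it too. The shares count windows, whereas Per1, Tspan4 and Arntl had more than 1 window each. Tspan4 held CACGTG and Arntl held AGGTCA only in the second. The stretches around the matches in Ciart, with 3 E-boxes that begin 116, 58 and 44 bases before the start, in Bhlhe41 (153 bases before), in Per1 (166 bases before) and in a second start site of Arntl (AGGTCA, 31 bases after the start) are shown because Ciart, Bhlhe41 and Per1 were higher and Arntl was lower in males. Capitals mark CACGTG and AGGTCA on either strand, and the Per1 stretch holds both, with AGGTCA on the other strand 137 bases before the start.
Ciart, chr3:95882237-95882374, minus strand: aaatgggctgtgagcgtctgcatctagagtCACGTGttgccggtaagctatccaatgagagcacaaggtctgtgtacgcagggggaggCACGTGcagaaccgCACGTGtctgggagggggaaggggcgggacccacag
Bhlhe41, chr6:145865538-145865603, minus strand: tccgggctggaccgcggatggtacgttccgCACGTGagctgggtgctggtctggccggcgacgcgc
Per1, chr11:69098753-69098818, plus strand: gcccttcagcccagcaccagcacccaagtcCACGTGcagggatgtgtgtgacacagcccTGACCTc
Arntl, chr7:113207512-113207560, plus strand: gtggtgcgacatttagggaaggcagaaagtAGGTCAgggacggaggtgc
A match describes these letters only, and binding was not measured.

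Polyamine metabolism was the second group with several calls. Polyamines are small charged molecules that bind nucleic acids, and their synthesis runs through ornithine decarboxylase and S-adenosylmethionine decarboxylase. Of 12 measured genes 3 were higher in Vps39+/- males and none was lower, with a median difference of 0.13 over the list, where 0.406% of all autosomal probe sets were higher.

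Amd2, annotated as an S-adenosylmethionine decarboxylase and a close copy of Amd1, was 9.52 to 10.4 (median 9.93) in males and 7.81 to 8.32 (median 8.16) in females, higher by 1.83 ± 0.15 (adjusted p = 6.73e-08). Whether its probes also bind Amd1 transcripts was not tested. Smox, the spermine oxidase, was 10.0 to 11.0 (median 10.4) in males and 8.94 to 9.38 (median 9.13) in females, higher by 1.31 ± 0.18 (adjusted p = 9.57e-05). Odc1, the ornithine decarboxylase that opens the pathway, was 7.98 to 9.31 (median 8.62) in males and 7.08 to 7.82 (median 7.62) in females, higher by 1.13 ± 0.22 (adjusted p = 0.00949). In all 3 genes every male lay above every female. Without the 3 Vps39+/- arrays of high Alb, Odc1 lost its call in limma (adjusted p = 0.151). Without all 10, Odc1 (0.554) and Smox (0.192) lost theirs. Amd2 kept its call in both of these smaller sets. Other members of the pathway did not pass, with differences of -0.05 for the spermidine synthase Srm (adjusted p = 0.897), 0.15 for the antizyme inhibitor Azin1 (adjusted p = 0.607) and -0.01 for the antizyme Oaz2 (adjusted p = 0.985). AGAACA, the half-site of androgen and glucocorticoid receptors, was searched on both strands and was in 19% of all windows. It was in none of the windows of Amd2, Smox and Odc1, nor in those of the other genes searched, 16 genes with a window in all. Windows this few cannot tell whether a receptor acts on these genes, which was not tested.

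**Figure D2:**
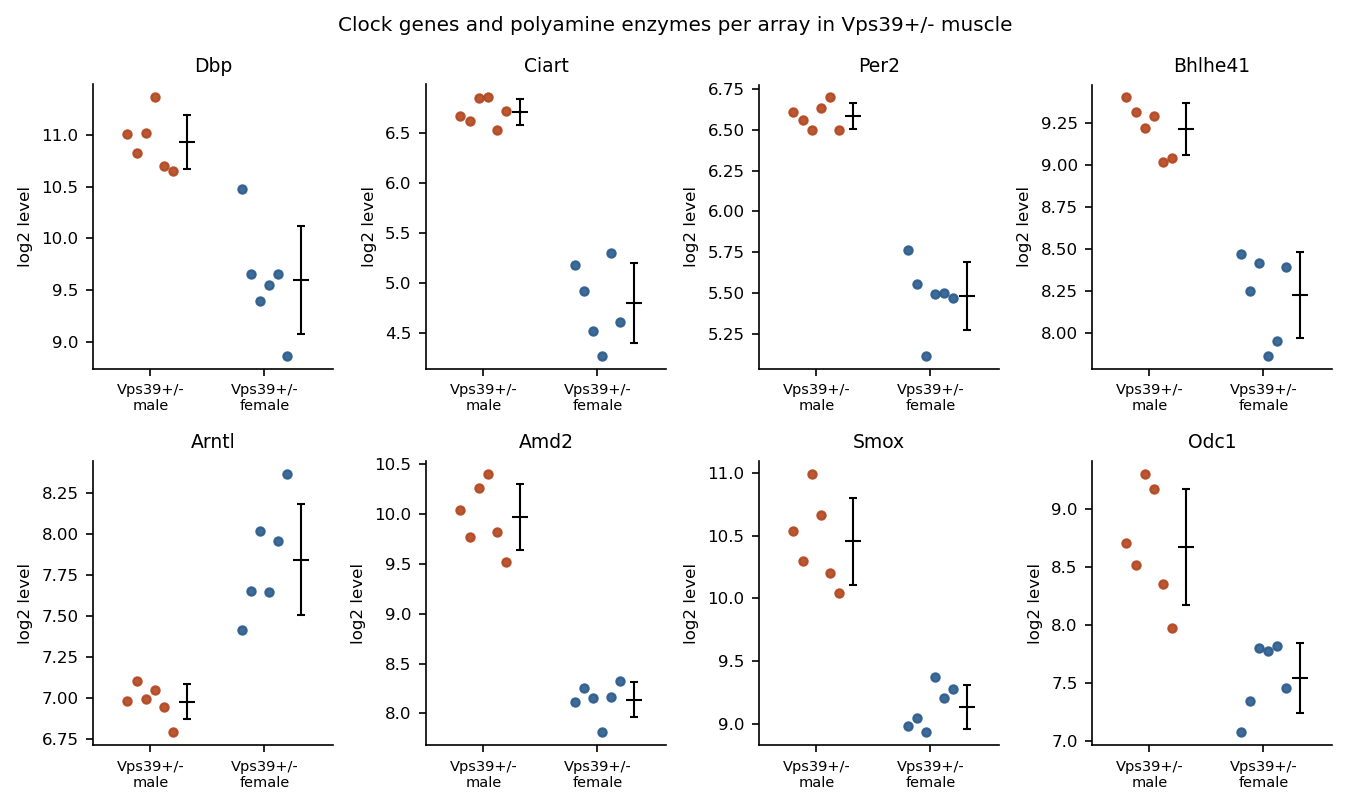
Log2 levels (vertical axis) of 5 clock genes and 3 polyamine enzymes in single Vps39+/- muscles, 6 males left of 6 females, with mean and SD. Dbp, Ciart, Per2, Bhlhe41, Amd2, Smox and Odc1 are higher and Arntl is lower in every male than in any female.

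Genes of the contractile apparatus changed in few members. Of 14 cardiac and developmental sarcomere genes 2 were lower, Mybph and Actc1. Actc1, the cardiac actin, which developing skeletal muscle also makes, was 8.37 to 8.95 (median 8.77) in males and 9.65 to 9.83 (median 9.74) in females, a fall of 0.99 ± 0.15 (adjusted p = 6.58e-04). All 14 slow fibre genes had a difference below 0, as had 51.1% of all autosomal genes, with a median of -0.26, but 0 of them passed in limma with all named probe sets and no weights or block (3 at an unadjusted p under 0.05). The lowest p among them belonged to the slow myosin light chain Myl3, which was 6.92 to 8.42 in males and 8.49 to 9.11 in females without overlap (-0.82 ± 0.21, adjusted p = 0.0598) and which passed when dim probe sets, with a mean under 5, were left out (0.0349), with array weights (0.0448), with a fixed block for the title number (-0.98, adjusted p = 0.0303) and without male 2 (-0.92, adjusted p = 0.0335). Myl2, another slow light chain, differed by -1.58 (adjusted p = 0.139) and the slow myosin heavy chain Myh7 by -0.22 (adjusted p = 0.821). The 15 fast fibre genes had a median of 0.02 and 0 calls (2 at an unadjusted p under 0.05).

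At the neuromuscular junction, where the receptor kinase MUSK and its co-receptor LRP4 gather acetylcholine receptors, 1 of 14 genes was higher and 1 was lower. Musk was 7.32 to 8.49 in males and 6.47 to 7.42 in females, which overlapped (0.83 ± 0.19, adjusted p = 0.0297), and Lrp4 was 6.89 to 7.34 in males and 7.36 to 7.53 in females (-0.37 ± 0.09, adjusted p = 0.0416). The call was lost on leaving out any 1 of 6 arrays for Musk (up to 0.092) and any 1 of 10 for Lrp4 (up to 0.126).

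Insulin signalling towards the transporter GLUT4 had 2 lower genes of 21, Irs1 and Grb10. Grb10, an adaptor that inhibits the insulin and IGF1 receptors, was 6.03 to 7.03 in males and 6.84 to 7.58 in females (-0.70 ± 0.16, adjusted p = 0.0394), with the call lost without any 1 of 9 arrays (up to 0.12). GLUT4 itself (Slc2a4) was 9.06 to 9.25 in males and 9.31 to 9.54 in females, apart but within 0.21 units and not called (adjusted p = 0.168). Other calls in the lists were single genes. Psmd8, a subunit of the proteasome lid, rose by 0.77 ± 0.14 (adjusted p = 0.0046), 1 of 39 proteasome genes. Gadd45g, a stress-induced gene, rose by 1.08 ± 0.25 (adjusted p = 0.0381, lost without any 1 of 8 arrays, up to 0.11) and was with Per1 1 of 2 higher genes among 16 glucocorticoid-responsive ones. Eif4ebp1, a repressor of cap-dependent translation, rose by 0.44 ± 0.10 (adjusted p = 0.0434, lost without any 1 of 11 arrays, up to 0.112) while Cdkn1a fell, together 2 of the 18 atrophy and FOXO target genes.

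**Figure D3:**
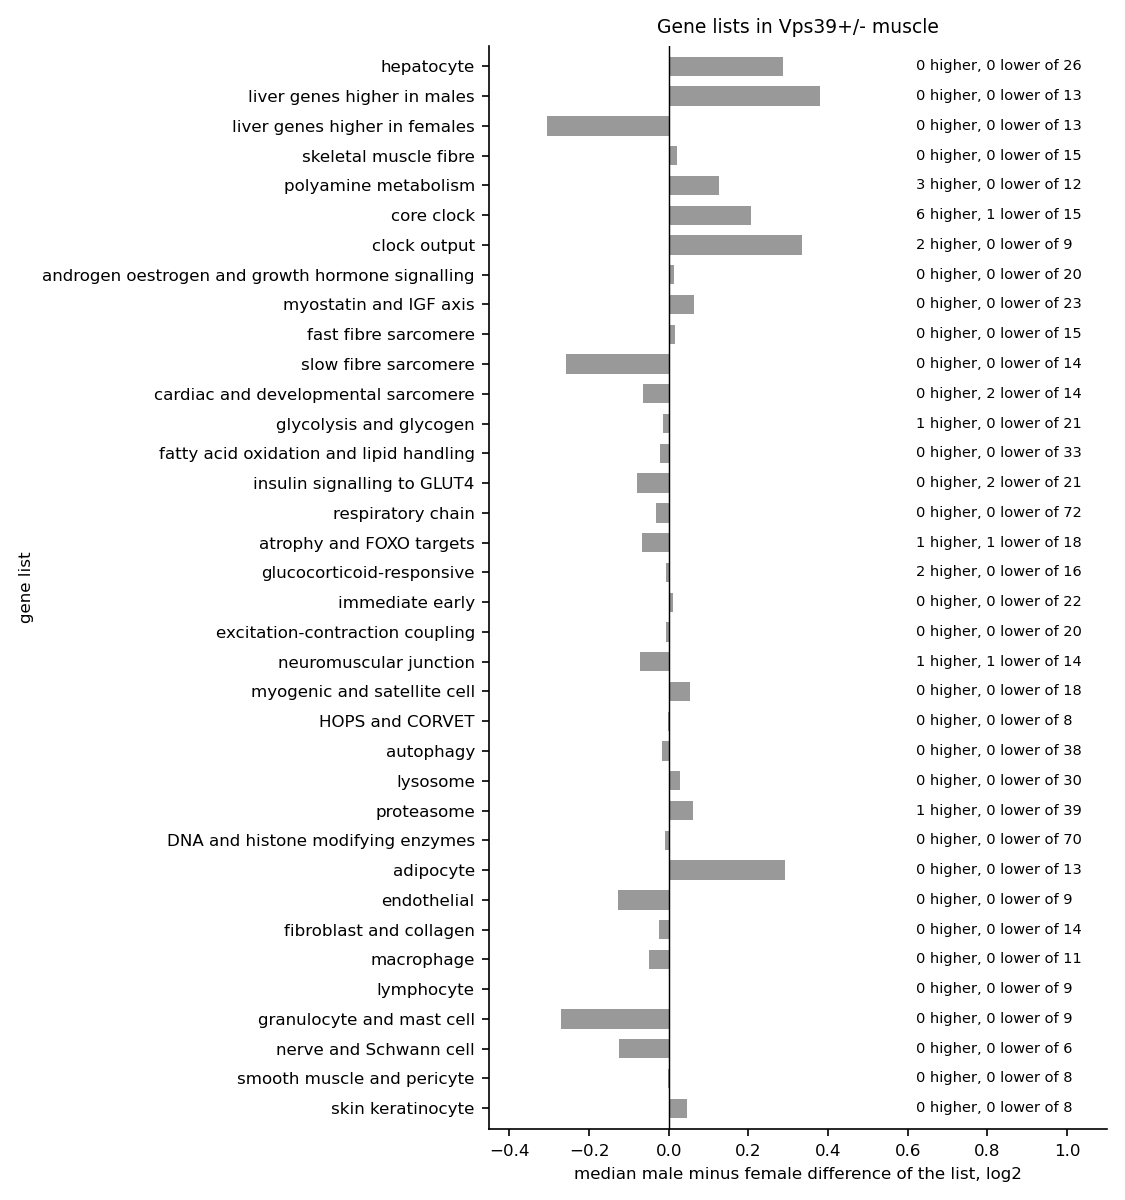
Median male minus female difference (horizontal axis, log2) of each gene list with at least 5 measured autosomal members in Vps39+/- muscle, with the number of members called higher and lower of those measured. Core clock (6 higher, 1 lower of 15) and polyamine metabolism (3 higher of 12) hold the most calls, and most medians lie near 0.

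In 27 of the 37 lists 0 autosomal members passed in limma, and 67 of their 538 members (12.5%) had an unadjusted p under 0.05, as had 11% of all autosomal genes. These included 20 genes of androgen, oestrogen and growth hormone signalling (median 0.01), 23 of the myostatin and IGF axis (median 0.06), 33 of fatty acid oxidation and lipid handling (median -0.02), 72 of the respiratory chain (median -0.03), 8 of the HOPS and CORVET tethering complexes to which VPS39 belongs (median 0.00), 38 of autophagy (median -0.02), 30 of the lysosome (median 0.03) and 70 DNA and histone modifying enzymes (median -0.01). Markers of other cells gave 0 calls as well, with medians of -0.13 for 9 endothelial genes, -0.05 for 11 macrophage genes and -0.27 for 9 granulocyte and mast cell genes. The difference was below 0 for 8, 10 and 9 of these genes, as it was for 51.1% of all autosomal genes. Among the granulocyte and mast cell genes 3 had an unadjusted p under 0.05 in limma, and 7 had a mean level under 5. The 13 adipocyte genes had a median of 0.29, and their mean level ran from 5.50 to 7.53 in males and from 5.69 to 6.00 in females.

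Alb was 5.96, 12.8, 13.4, 5.96, 7.00 and 8.09 in the 6 Vps39+/- males and 11.2, 6.74, 11.2, 6.38, 10.4 and 11.5 in the 6 Vps39+/- females. Both sexes held muscles with high and low values, 2 males standing far above their group and 4 females above 10. The means differed by -0.71 (two-sided exact permutation test, p = 0.641). The mean of 26 hepatocyte genes was 6.58 ± 2.23 in males and 6.33 ± 1.12 in females (SD, n = 6 each), a difference of 0.26 (exact permutation p = 0.777) that turned below 0 without male 2 (-0.25), male 3 (-0.38), female 2 (-0.02) or female 4 (-0.03).

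Of 13 genes known to be higher in male liver and 13 known to be higher in female liver, 0 passed in limma (0 at an unadjusted p under 0.05). A pair of them is given by array. Mup20, a major urinary protein made by male liver, was 10.9 in male 2 and 10.1 in male 3, against 4.69 to 5.11 in the 4 females with Alb above 10. Cyp3a41a, a cytochrome P450 of female liver, was 4.32 and 3.46 in the same males and 4.71 to 6.63 in those females. Alb was 12.8 and 13.4 in these males, against 10.4 to 11.5 in these females, and its part in the Mup20 values was not tested on these arrays alone. In WT muscle Mup20 was 9.57 in male 6, against 9.11 in female 2, 4.83 in female 3 and 7.62 in female 6, all of them with high Alb. Over all 6 against 6 neither passed (2.20, adjusted p = 0.507 for Mup20 and -1.32, adjusted p = 0.644 for Cyp3a41a), while Mup20 passed with Alb as a covariate (2.72, adjusted p = 0.0111). Both belong to families of near-identical genes whose probes may be shared. Of the 145 autosomal probe sets that followed Alb, the 6 with the largest difference were Mup3, Slc27a2, Ces3a, Apoe, Mug1 and Serpina1e, with values from 0.76 to 1.13, adjusted p from 0.704 to 0.859 and overlapping groups in each. Mup3 passed in limma with Alb as a covariate (1.82, adjusted p = 0.0484). Apoe passed with the hepatocyte list mean as a covariate (0.61, adjusted p = 0.0279). The rest of the 6 passed with neither.

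**Figure D4:**
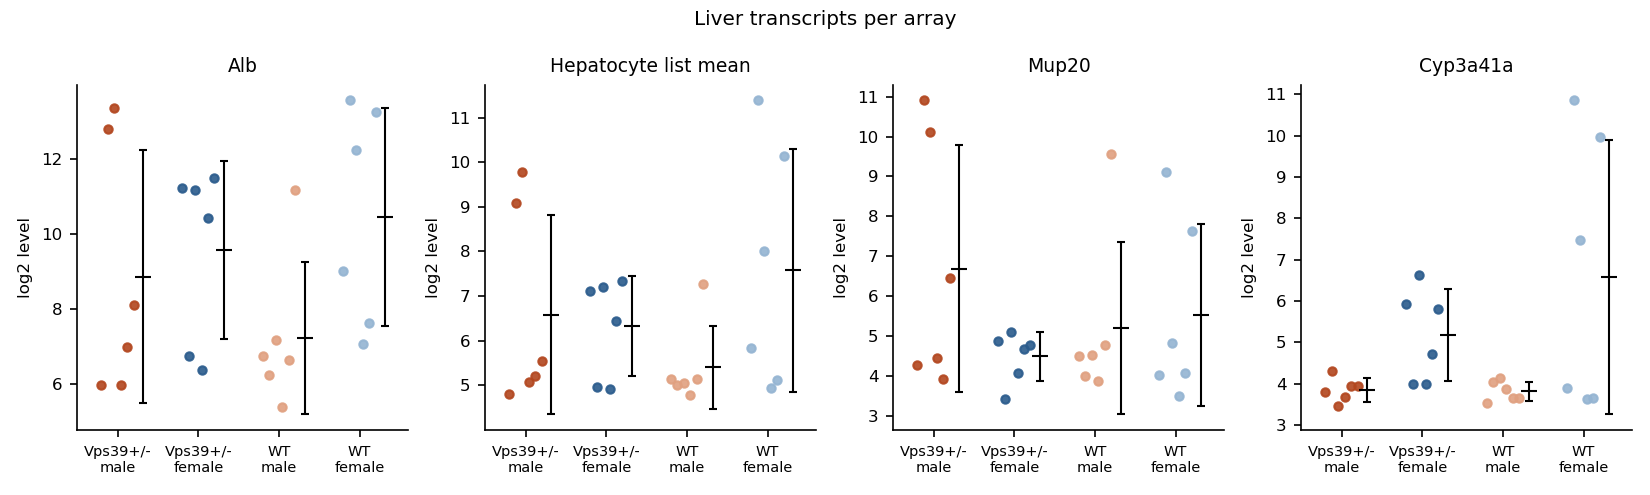
Log2 levels (vertical axis) of Alb, the mean of 26 hepatocyte genes, Mup20 and Cyp3a41a in each of the 24 muscles, with mean and SD of each group of 6. High Alb occurs in both sexes of Vps39+/- mice, while Mup20 above 10 is found in 2 Vps39+/- males and Cyp3a41a above 5 in females only.

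The same contrast in the 12 WT mice, which shares no array with the Vps39+/- contrast but the same pooled estimate of the spread, called 241 autosomal genes (160 higher, 81 lower), 1.29% of those tested. Liver transcripts were less even between the sexes there. The Alb difference was -3.24 in WT (limma, adjusted p = 0.3) and -0.71 in Vps39+/- muscle, and the median difference of the hepatocyte list was -2.18 and 0.29. The WT calls were not set against Alb. Of the 134 genes called in Vps39+/- muscle 64 were also called in WT with the same sign, 47.8% of the first list and 26.6% of the second. A WT difference of the same sign was found for 127 of the 134 (75 of the 76 higher and 52 of the 58 lower), with a median absolute difference of 0.59 in Vps39+/- and 0.43 in WT muscle. The genes were chosen by their Vps39+/- values, which raises the first median, so the pair does not compare the genotypes.

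Whether the sex difference itself differed between genotypes was tested as an interaction, and 0 autosomal genes passed (smallest adjusted p = 0.386), while 1455, or 7.77%, had an unadjusted p under 0.05. The genes of smallest p were Tasp1, Ebag9 and Lars below 0 and Igfals, Eva1a and Mt2 above 0. Tasp1, a protease that cleaves the histone methyltransferase MLL, was lower in Vps39+/- males by 0.37 (adjusted p = 0.0424, lost without any 1 of 10 arrays, up to 0.105) and differed by 0.19 in WT (adjusted p = 0.316). Mt2, a metal-binding metallothionein, differed by 0.08 in Vps39+/- (adjusted p = 0.94) and -1.2 in WT (adjusted p = 0.0105), an interaction of 1.29 at an adjusted p of 0.583.

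Some large differences in Vps39+/- muscle were small in WT, but the interaction did not pass for any of them. Actc1 fell by 0.99 in Vps39+/- and differed by -0.22 in WT (adjusted p = 0.557). Its interaction was -0.77, with a 95% interval from -1.22 to -0.32 that is not adjusted for the number of genes (interaction adjusted p = 0.583). Paxbp1, a partner of the muscle stem cell factors PAX3 and PAX7 that was singled out after its values were seen, was 5.73 to 6.21 in Vps39+/- males and 6.36 to 6.58 in Vps39+/- females (-0.56 ± 0.10, adjusted p = 0.00343) and differed by 0.01 in WT (adjusted p = 0.97, interaction adjusted p = 0.523). Uchl1, a ubiquitin hydrolase also noticed after the fact, rose by 0.74 in Vps39+/- (adjusted p = 0.00175) and differed by 0.20 in WT (adjusted p = 0.493, interaction adjusted p = 0.632). For the clock and polyamine genes the WT differences were 2.11 for Ciart, 1.26 for Per2, 0.99 for Bhlhe41, -1.43 for Arntl, 1.87 for Amd2, 1.52 for Smox and 0.92 for Odc1.

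**Figure D5:**
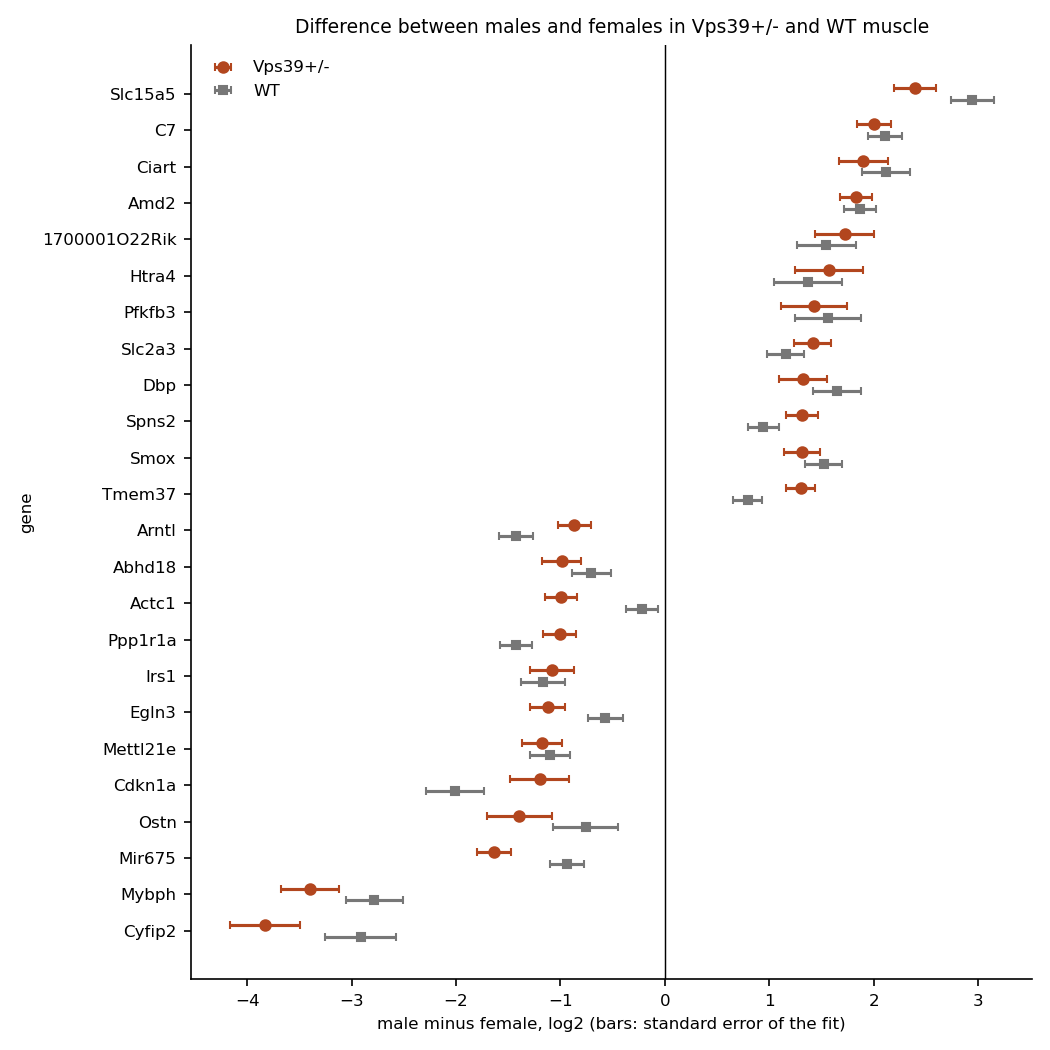
Male minus female difference (horizontal axis, log2, bars are standard errors) of the 12 largest increases and 12 largest decreases of Vps39+/- muscle, in Vps39+/- (circles) above WT (squares). All 24 genes have the same sign in both genotypes, and Actc1 is the gene nearest to 0 in WT at -0.22.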

How the data were processed

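Tibialis anterior RNA of 24 mice was measured on Clariom S mouse arrays. The authors normalised the arrays together with Expression Console 1.4.1.46 by Robust Multi-array Analysis (RMA) and deposited log2 values. RMA gives all arrays 1 distribution, which removes a shift shared by most genes, and it compresses differences of dim probe sets. Of 28846 probe sets 6640 controls and 2634 unnamed ones were left out. The other 19572 (19505 symbols) were matched by Entrez identifier to a RefSeq table of GRCm38.p6, which placed 18726 on autosomes.

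limma 3.58.1 (R 4.3.3) was fitted to 4 group means over all 24 arrays, with two-sided tests and Benjamini-Hochberg adjustment over the 19572. The fit was tested on simulated data. Arrays have no read depth, so their number limits the precision, and the p-values measure the spread between mice. Genes were named by rule: among called autosomal probe sets whose mean over the 12 arrays was at least 5, with an absolute correlation with Alb under 0.8, the 12 largest changes in each direction, up to 4 members of smallest p of each list, and the 3 smallest interaction p in each direction. Nr1d2, Per3, Cry1, Nr1d1, Clock, Npas2, Srm, Azin1, Oaz2, Myh7, Paxbp1, Uchl1 and the genes named under the other observations were added after their values were seen. Lists used the probe set of highest mean per gene. The members and lists were chosen with earlier results of these data known. Alternatives are given in the closing section.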

Additional observations from a re-analysis of the deposited data

Results flagged for a closer look

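Of 132 groups of 6 examined for the genes named above and for related genes, 9 held an array whose gap to its nearest neighbour took up an unusually large part of the range of its group, and chance flags about 1 group in 20. In Vps39+/- males these were male 2 for Mybph (6.70, next 6.05), male 3 for Actc1 (8.37, next 8.73) and for the growth factor Igf2 (7.83, next 7.98), and male 4 for Abhd18 (4.46, next 4.99), Slc2a4 (9.06, next 9.19) and Myl3 (6.92, next 7.86). In Vps39+/- females these were female 4 for Egln3 (10.3, next 9.64) and for Vps39 (6.67, next 7.81), and female 6 for the clock repressor Nr1d1 (8.75, next 9.63). Without female 4 the Vps39 difference was -0.23. The calls for Mybph, Actc1, Abhd18 and Egln3 were kept without any 1 array.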

How the results depend on the processing

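The number of called genes (134, of which 76 were higher and 58 lower) stayed within 1.5 times under the 12 arrays alone, the same median, cyclic loess, every non-control probe set tested, an intensity trend with a robust prior, either covariate for liver transcripts, the title number as fixed or random block, and the methods' t-test after Benjamini-Hochberg adjustment (111, of which 74 were among the 134). It was 203 (94 lower) with array weights, and 91 genes were lower when dim probe sets (mean under 5) were left out. It was 62 (46 higher, 16 lower) without the 3 Vps39+/- arrays of high Alb and 16 (12 higher, 4 lower) without all 10, both with fewer arrays. The methods' t-test without adjustment passed 2379 genes (1109 higher, 1270 lower). Leaving out 1 array at a time gave 88 to 117 calls, 54 to 72 higher and 32 to 51 lower. The share of higher calls was 56.7%, and it was 49% with a fixed block for the title number, where 104 of 151 calls were among the 134. None of the 24 alternatives that gave an interaction called a gene (0 each, 914 to 2204 at an unadjusted p under 0.05).

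Of the 24 genes of largest change, 24 stayed called with either covariate for liver transcripts, 18 without the 3 arrays of high Alb, 11 without all 10 and 18 in the methods' t-test after adjustment. Outside these 24 that t-test also lost Odc1 (adjusted p = 0.0774), Per1 (0.065), Psmd8 (0.0517), Grb10 (0.128), Eif4ebp1 (0.0606), Musk (0.168) and Gadd45g (0.206). It lost Tasp1 (0.0598), Usp29 (0.0508), Vgll2 (0.0722), Cbr2 (0.0633) and Casr (0.0566) as well. The Alb difference ranged from -1.61 to -0.13 and the hepatocyte mean from -0.38 to 0.61 on leaving out 1 array. Vps39 turned to -0.0012 with equal medians, -0.023 with Alb as a covariate and -0.088 with the fixed block, and ranged from -0.23 to 0.11 on leaving out 1 array. Without the 3 arrays of high Alb the liver genes turned to -0.66 (Mup3), -0.16 (Slc27a2), -0.36 (Ces3a), -0.77 (Mug1) and -0.79 (Serpina1e). Serpina1e was -0.094 without all 10 and ranged from -0.11 to 1.13 on leaving out 1 array. For these reversals the cause was not tested. The replicate numbers were given in accession order and pair no mice. Blocking on the title number, whose meaning is not stated, gave 151 calls when fixed, and 132 when random.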

Other observations

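Genes subject to genomic imprinting, expressed from 1 parental copy, were gathered after the probe set annotated Mir675 had been seen among the decreases. Of 32 measured genes of that list 0 were higher and 3 were lower in Vps39+/- males: Mir675, Grb10 and Usp29. Of all autosomal probe sets 0.310% were lower. Usp29, a paternally expressed gene of the Peg3 region, was dim, with 2.81 to 3.92 in males and 4.24 to 5.23 in females (-1.36 ± 0.29, adjusted p = 0.022, lost without any 1 of 6 arrays, up to 0.0722). Igf2, the neighbour of H19 that shares its imprinting control, was 7.83 to 8.04 in males and 8.10 to 8.26 in females without overlap (-0.20, adjusted p = 0.303). The list's median difference was -0.03 in Vps39+/- and -0.04 in WT muscle, so most of its members did not move with these 3.

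Among called genes picked after their values were seen, Eef1b2, a subunit of translation elongation factor 1, was 10.8 to 10.9 in Vps39+/- males and 11.1 to 11.3 in Vps39+/- females (-0.33 ± 0.05, adjusted p = 8.09e-04) and differed by -0.25 in WT (adjusted p = 0.0123). Rplp0, picked in the same way, the ribosomal stalk protein often used as a reference gene, was 10.2 to 10.4 in males and 10.5 to 10.7 in females (-0.27 ± 0.06, adjusted p = 0.0347, lost without any 1 of 10 arrays, up to 0.0886) and differed by -0.02 in WT (adjusted p = 0.913, interaction adjusted p = 0.632).

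Other called genes with roles outside the lists, also picked after their values were seen, included Serpinb6a, a protease inhibitor (1.2 ± 0.13, adjusted p = 4.71e-06), the zinc transporter Slc30a2 (1.07 ± 0.17, adjusted p = 9.71e-04), the carbonyl reductase Cbr2 (1.22 ± 0.22, adjusted p = 0.00442), the calcium-sensing receptor Casr (-0.75 ± 0.15, adjusted p = 0.00919) and Vgll2, a cofactor of TEAD transcription factors in muscle (-0.52 ± 0.11, adjusted p = 0.0216, lost without any 1 of 4 arrays, up to 0.0721). In each of these 5 genes the 6 males and 6 females did not overlap. Without the 3 Vps39+/- arrays of high Alb, Casr (adjusted p = 0.116) and Vgll2 (0.153) lost their calls in limma. Without all 10, Slc30a2 (0.124), Cbr2 (0.422), Casr (0.184) and Vgll2 (0.529) lost theirs, while Serpinb6a kept its call.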
